A study of Mus musculus with 12 samples.

Results

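The genes described here encode the matrix metalloproteinases Mmp2, Mmp3, Mmp8, Mmp9, Mmp12, Mmp13 and Mmp14 and the tissue inhibitors of metalloproteinases Timp1, Timp2 and Timp3. They were chosen by name, 10 of the 23579 genes with a symbol on the arrays, and every probe whose accession maps to them was read on all 12 arrays. The arrays were single-colour microarrays of microglia, the resident macrophages of the brain, taken from male mice 8 weeks old with a magnetic enrichment kit for CX3CR1, the fractalkine receptor. The groups were mice that overexpress the zinc-finger transcription factor ZEB1 after tMCAO, wild type mice after tMCAO, ZEB1 knock-down mice after tMCAO, and ZEB1-overexpressing, ZEB1 knock-down and wild type mice before tMCAO, with 2 samples in each of the 6 groups. tMCAO is transient middle cerebral artery occlusion, a stroke model in which a brain artery is blocked and then reopened. The promoter or vector behind the overexpression, the means of the knock-down, the time after tMCAO and the number of animals per sample are not given in the sources used here. The labels do not say that the replicates came from separate animals, so p-values cover the spread of these samples alone, and that spread may be technical. In bulk samples such as these, fewer cells of a type and less RNA per cell cannot be told apart.

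Matrix metalloproteinases are zinc-dependent proteases that are made as inactive pro-enzymes and, once activated by plasmin, by furin or by each other, cut collagens, laminins, elastin and other matrix proteins. TIMPs bind the active site of these proteases and block it. In the stroke-injured brain the gelatinases MMP-2 and MMP-9 are known for digesting the basement membrane around capillaries and the tight junctions of the blood-brain barrier.

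Wild type and ZEB1 overexpression after tMCAO lay on a slide of 4 arrays and the other 4 groups on a slide of 8 arrays of another design, so comparisons were tested within a slide only. A level is the log2 of a spot's background-subtracted intensity minus the 75th percentile of its array, an intensity of 1078 to 1515 on the 4-array slide and of 2566 to 3702 on the other. Spots that the scanner software marked as non-uniform or outlying (7.49% to 21.7% on the 4-array slide, 1.03% to 23.7% on the 8-array slide) were left out of tests, and the levels given below are of all spots with the marks stated. All 10 genes had at least 1 probe that passed the filter on dim signal in each slide. Mmp3, Mmp12 and Mmp13 passed it on the 8-array slide through the knock-down arrays after tMCAO alone, so these genes could hardly fail to stand higher there. The manipulated gene, Zeb1, did not separate the groups: with all spots its level was -0.28 and -0.36 on the arrays labelled overexpression, -0.11 and -0.79 on those labelled knock-down and -0.57 and -0.59 on those labelled wild type before tMCAO, -0.66 and -0.67 on those labelled knock-down after tMCAO, and -0.08 and 0.56 on those labelled overexpression against 0.12 and 0.41 on those labelled wild type after tMCAO. Whether the Zeb1 probes read the transgene or lie in the targeted stretch was not tested, and every genotype below is as labelled. All 10 microglial markers examined, Cx3cr1, P2ry12 and Tmem119 among them, were well above background on all 12 arrays.

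Mmp13, Mmp12, Mmp3 and Mmp8 lie in that order within a single cluster of metalloproteinase genes on mouse chromosome 9 (GRCm38.p6, 7272514 to 7283333, 7344397 to 7360461, 7445822 to 7455975 and 7558429 to 7568486). Timp1 lies on chromosome X, Timp2 on chromosome 11, Timp3 on chromosome 10, Mmp9 on chromosome 2, Mmp14 on chromosome 14 and Mmp2 on chromosome 8. RefSeq promoter windows of 250 bases before a transcription start (GRCm38.p6) were available for 8 of the 10 genes. The windows of Mmp3 (chr9:7445572-7445821, plus strand), of the second Mmp12 start (chr9:7347124-7347373, plus strand) and of Mmp13 (chr9:7272264-7272513, plus strand) are printed because these were the protease genes well above background on knock-down arrays after tMCAO and not on those before it. Mmp12 had 2 windows, and only the one that holds the motif below is printed. Capitals mark TGANTCA, the site that AP-1 (Fos and Jun dimers) is known to bind, which reads the same on both strands.
Mmp3: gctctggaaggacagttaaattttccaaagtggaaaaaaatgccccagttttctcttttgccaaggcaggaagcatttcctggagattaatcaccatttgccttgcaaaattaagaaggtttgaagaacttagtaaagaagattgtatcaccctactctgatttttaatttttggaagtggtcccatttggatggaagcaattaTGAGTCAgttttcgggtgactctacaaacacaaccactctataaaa
Mmp12: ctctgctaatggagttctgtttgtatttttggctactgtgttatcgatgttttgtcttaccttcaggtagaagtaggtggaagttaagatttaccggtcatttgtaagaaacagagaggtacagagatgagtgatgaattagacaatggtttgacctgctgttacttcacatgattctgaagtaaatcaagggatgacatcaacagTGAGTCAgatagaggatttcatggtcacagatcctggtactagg
Mmp13: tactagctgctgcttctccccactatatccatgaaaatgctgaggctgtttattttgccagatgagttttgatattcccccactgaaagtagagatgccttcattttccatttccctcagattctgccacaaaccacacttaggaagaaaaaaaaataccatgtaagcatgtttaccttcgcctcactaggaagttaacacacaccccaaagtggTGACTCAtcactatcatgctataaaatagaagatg
The motif began 46 bases before the start in Mmp3, 44 before the second start in Mmp12 and 35 before the start in Mmp13. It stood in 6.749% of the 32851 windows of this length in the RefSeq table, a share per window where Mmp12 had 2. The first Mmp12 window and those of Mmp8, Mmp14, Timp1, Timp2 and Timp3 did not hold these letters. Timp1 (chrX:20869916-20870165, plus strand), the inhibitor with the largest difference, is printed for comparison.
Timp1: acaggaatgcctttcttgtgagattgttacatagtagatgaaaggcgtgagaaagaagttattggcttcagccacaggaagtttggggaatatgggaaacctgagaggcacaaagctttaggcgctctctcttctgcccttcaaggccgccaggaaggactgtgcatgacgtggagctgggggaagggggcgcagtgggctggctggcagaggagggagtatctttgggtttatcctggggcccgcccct
The windows of Timp2 (chr11:118355412-118355661, minus strand) and Timp3 (chr10:86300162-86300411, plus strand) held the E-box that ZEB1 is known to bind, CAGGTG or its reverse CACCTG, in capitals.
Timp2: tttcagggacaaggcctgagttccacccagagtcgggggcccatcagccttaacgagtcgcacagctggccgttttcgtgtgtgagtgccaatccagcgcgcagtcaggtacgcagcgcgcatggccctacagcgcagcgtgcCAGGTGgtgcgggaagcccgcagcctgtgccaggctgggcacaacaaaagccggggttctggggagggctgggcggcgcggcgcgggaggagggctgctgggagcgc
Timp3: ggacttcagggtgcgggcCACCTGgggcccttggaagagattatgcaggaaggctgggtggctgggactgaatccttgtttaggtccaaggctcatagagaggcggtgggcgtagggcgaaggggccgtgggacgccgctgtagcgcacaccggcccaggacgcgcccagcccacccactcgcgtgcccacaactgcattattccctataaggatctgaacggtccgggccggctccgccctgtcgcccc
The E-box began 107 bases before the start in Timp2 and 232 in Timp3 and stood in 17.22% of all windows, searched on both strands. A match is a run of letters and not a measured binding site.

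Among the knock-down arrays, 6 members were higher after tMCAO than before it: the stromelysin gene Mmp3, the macrophage elastase gene Mmp12, the neutrophil collagenase gene Mmp8, the membrane-type protease gene Mmp14, the gelatinase gene Mmp2 and the inhibitor gene Timp1. They were 6 of the 9 members with a tested value, and 0 fell. Of all 24647 genes tested, unnamed transcripts included, 11.1% were called higher, 7.04% lower and 18.2% in either direction (limma, Benjamini-Hochberg adjusted p under 0.05). Of the 6 tested members that did not depend on the knock-down arrays after tMCAO to pass the filter, 4 rose (Mmp2, Mmp8, Mmp14 and Timp1), and Mmp9 and Timp2 did not pass. With all spots kept, both arrays after tMCAO stood above both arrays before it for 8 of the 10 members, beside 33.6% of all genes, and below both for 0 members, beside 28.4%. The 8 include Mmp3, Mmp12 and Mmp13, which passed the filter through the knock-down arrays after tMCAO alone. The others were Mmp2, Mmp8, Mmp9, Mmp14 and Timp1, while Timp2 and Timp3 overlapped between knock-down after and before tMCAO. Position on the slide differed between these groups too (row 1, columns 1 and 2 after tMCAO, row 2, columns 3 and 4 before it) and cannot be told apart from tMCAO in this contrast. The share of marked spots moved with this comparison too, at 20.8% and 23.5% on the knock-down arrays after tMCAO, against 1.87% and 1.03% on those before it. It was 23.7% and 18.2% on the overexpression arrays before tMCAO. The part of the marked share in the members' levels was not tested. Wild type arrays before tMCAO shared the row and overexpression arrays before tMCAO shared the columns of the knock-down arrays after tMCAO, and their levels are given with each gene.

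**Figure D1:**
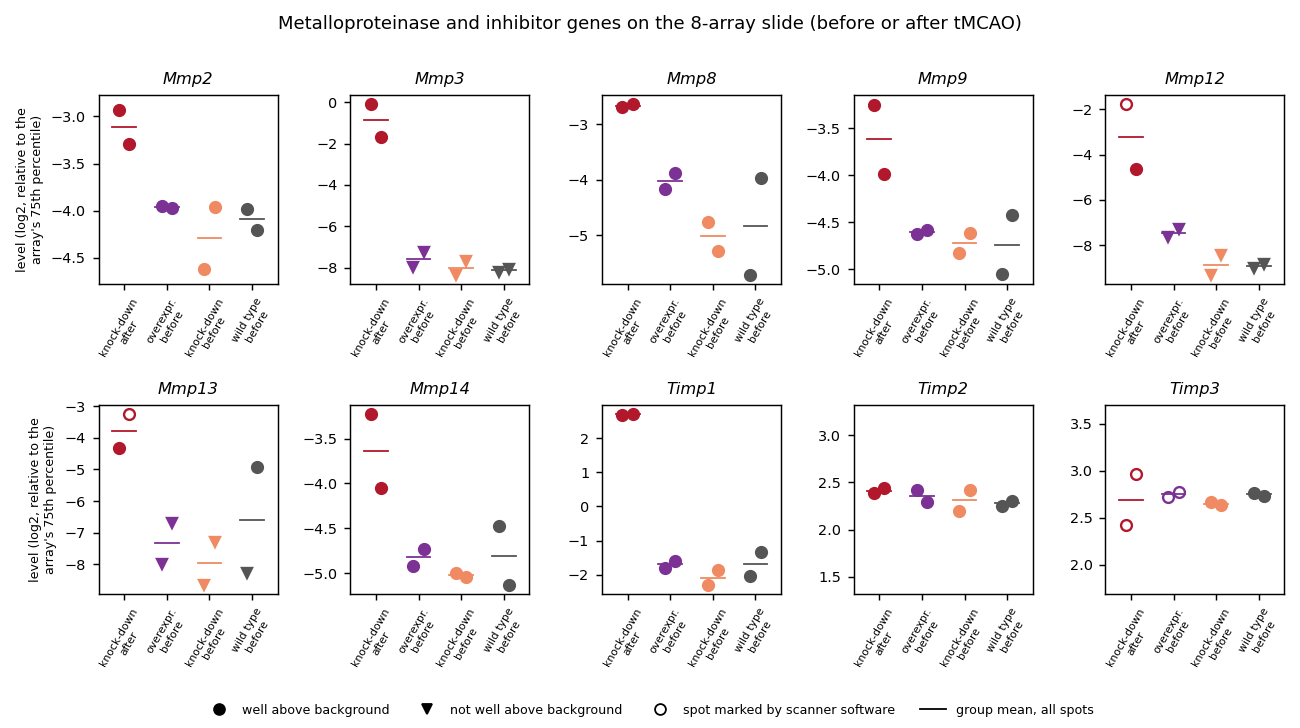
Level of each member (log2 signal above or below the array's 75th percentile, 1 point per array, line at the group mean) on the 8-array slide, for ZEB1 knock-down after tMCAO and for overexpression, knock-down and wild type before tMCAO, with triangles not well above background and open symbols marked. Timp1 stood at 2.68 and 2.71 after tMCAO and between -2.30 and -1.32 on the 6 arrays before it, whereas Timp2, by the probe drawn, stayed between 2.20 and 2.44 on all 8.

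Timp1 encodes an inhibitor of most secreted metalloproteinases that also binds the pro-form of MMP-9. Its level was 2.68 and 2.71 on the knock-down arrays after tMCAO, against -2.30 and -1.87 on the knock-down arrays before it. On the arrays of the other genotypes before tMCAO it was -1.79 and -1.58 with overexpression and -2.04 and -1.32 in wild type. The arrays after tMCAO thus lay above all 6 others. Among those, wild type overlapped both other genotypes, and overexpression stood above knock-down. The log2 difference within the knock-down was 4.78 ± 0.27 (SE, limma adjusted p = 0.0021, n = 2 per group), a 27.4-fold higher level, and it lay between 4.56 and 4.99 with any 1 of the 4 arrays left out (adjusted p 0.0055 to 0.0275).

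Mmp3 encodes stromelysin-1, which degrades proteoglycans, laminin and fibronectin and activates other pro-metalloproteinases, pro-MMP-9 included. It stood at -0.06 and -1.65 on the knock-down arrays after tMCAO, against -8.36 and -7.71 on those before it. The 4 other arrays before tMCAO were at -7.97 and -7.24 with overexpression and -8.21 and -8.06 in wild type, and none of the 6 arrays before tMCAO was well above background. The fitted log2 difference of 7.18 ± 0.55 (limma adjusted p = 0.0031, n = 2 per group) therefore has only a lower bound as a fold. That bound sets the mean of the brighter arrays against the lowest signal well above background on each dim array: Mmp3 was at least 56.1-fold higher after tMCAO. With normexp background correction the log2 difference was 4.37 (adjusted p = 0.0003).

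Mmp12 encodes macrophage elastase, which digests elastin and is made chiefly by macrophages. Its brightest probe was at -1.75 (a marked spot) and -4.65 on the knock-down arrays after tMCAO, against -9.31 and -8.44 on those before it. It was not well above background on any of the 6 arrays before tMCAO, with -7.63 and -7.30 under overexpression and -9.01 and -8.81 in wild type. The replicates after tMCAO lay well apart, yet both were above the 6 arrays before it. With the marked spot left out the difference rested on 1 array after tMCAO and was 4.22. With that spot kept the difference was 5.67 ± 0.86 (limma adjusted p = 0.0118, where 16.6% of all genes passed). By the mean of both arrays, the marked spot included, Mmp12 was at least 11.03-fold higher. Another pair of Mmp12 probes did not pass the filter, since they were well above background on replicate 1 after tMCAO (-3.10 and -2.61) and not on replicate 2 (-6.13 and -6.89). The same bound on their means was 4.15-fold and 3.78-fold. With normexp the Mmp12 difference was 1.28 (adjusted p = 0.0032), and with no filter on dim probes its adjusted p was 0.0531.

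Mmp13 encodes collagenase-3, a protease of fibrillar collagens. It was at -4.33 and -3.24 (a marked spot) on the knock-down arrays after tMCAO, against -8.65 and -7.28, neither well above background, on those before it. Of the other arrays before tMCAO, overexpression gave -7.97 and -6.69, both not well above background, and wild type gave -8.27, not well above background, and -4.93. The wild type replicate 2 was thus the only array before tMCAO with a measured Mmp13 level, and it lay below both arrays after tMCAO. With 1 array left after tMCAO the difference was 3.64 ± 1.47 and did not pass (adjusted p = 0.143). With the marked spot kept it was 4.18 ± 1.12 (adjusted p = 0.0519), at least 7.36-fold.

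Mmp8, the neutrophil collagenase stored in neutrophil granules, stood at -2.70 and -2.63 on the knock-down arrays after tMCAO, against -4.76 and -5.27 on those before it. Overexpression arrays before tMCAO were at -4.17 and -3.88 and wild type arrays at -5.72 and -3.96, so the arrays after tMCAO lay above all 6 others and the wild type replicates alone spanned most of the range before tMCAO. The difference within the knock-down was 2.35 ± 0.54 (limma adjusted p = 0.0349, n = 2 per group). It did not pass without any 1 of the 4 arrays (2.09 to 2.61, adjusted p 0.0817 to 0.150), nor with quantile normalization (adjusted p = 0.0621) or no filter on dim probes (adjusted p = 0.0531). The wild type replicates before tMCAO also differed in their summed neutrophil markers, 4.18 in replicate 1, where Mmp8 was at -5.72, and 12.98 in replicate 2, where it was at -3.96 and where Mmp13 was measured, and the part of neutrophils was not tested.

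Mmp14 encodes a membrane-anchored protease that activates pro-MMP-2 at the cell surface in a complex with TIMP-2. It was at -3.22 and -4.05 on the knock-down arrays after tMCAO, against -4.997 and -5.04 on those before it, with -4.92 and -4.73 under overexpression and -4.48 and -5.13 in wild type before tMCAO. The lower array after tMCAO lay close to the highest before it. The difference was 1.38 ± 0.33 (adjusted p = 0.0371). It did not pass without replicate 1 after tMCAO (0.97, adjusted p = 0.0966), without replicate 1 before (1.40, adjusted p = 0.125) or without replicate 2 before (1.36, adjusted p = 0.142), nor with no filter on dim probes (adjusted p = 0.0531).

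Mmp2, gelatinase A, stood at -2.93 and -3.29 on the knock-down arrays after tMCAO, against -4.62 and -3.96 on those before it, and between -4.20 and -3.95 on the 4 arrays of the other genotypes before tMCAO. The groups did not overlap, and the difference was 1.18 ± 0.25 (adjusted p = 0.0281). It did not pass without replicate 1 after tMCAO (1.001, adjusted p = 0.0922) or without replicate 1 before (0.85, adjusted p = 0.0889), nor with no filter on dim probes (adjusted p = 0.0531). Mmp9, gelatinase B, stood at -3.25 and -3.99 after tMCAO, against -4.83 and -4.61 before it, with -4.63 and -4.58 under overexpression and -5.05 and -4.43 in wild type. Both arrays after tMCAO were above the 6 others, but the difference of 1.0998 ± 0.30 did not pass (adjusted p = 0.0539, 95% interval 0.36 to 1.84). A second Mmp9 probe, at -2.63 and -3.37 after tMCAO against -5.05 and -5.15 before it, gave 2.10 ± 0.58 (adjusted p = 0.0542). Mmp9 did pass with normexp (1.51, adjusted p = 0.0153), with only probes well above background on every array (adjusted p = 0.0327), with the mean of both probes (1.60, adjusted p = 0.0488) and without replicate 2 after tMCAO (1.47, adjusted p = 0.0337).

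Timp2 and Timp3 were bright on every array. Timp2, which takes part in pro-MMP-2 activation besides its inhibitory role, was at 2.39 and 2.44 on the knock-down arrays after tMCAO, against 2.20 and 2.42 on those before it, with 2.42 and 2.29 under overexpression and 2.25 and 2.30 in wild type. The groups overlapped, the difference was 0.11 ± 0.14 (adjusted p = 0.605), and its 95% interval was -0.22 to 0.43. The dimmer Timp2 probe was at 2.27 on both arrays after tMCAO, 1 of these spots being marked, against 1.36 and 1.76 before it, and gave 0.71 ± 0.29 (adjusted p = 0.164), with a wider interval of -0.07 to 1.496 that includes the differences of Mmp2 and Mmp14. Timp3, an inhibitor that binds the extracellular matrix and also blocks the sheddase ADAM17, was at 2.42 and 2.97 after tMCAO, both spots marked, against 2.66 and 2.64 before it, and between 2.72 and 2.77 on the other 4 arrays. It had no value with marked spots left out, and with them kept the difference was 0.04 ± 0.20 (adjusted p = 0.898). The other Timp3 probe, with both spots after tMCAO marked too, gave 0.06 ± 0.14 with them kept (limma adjusted p = 0.803).

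**Figure D2:**
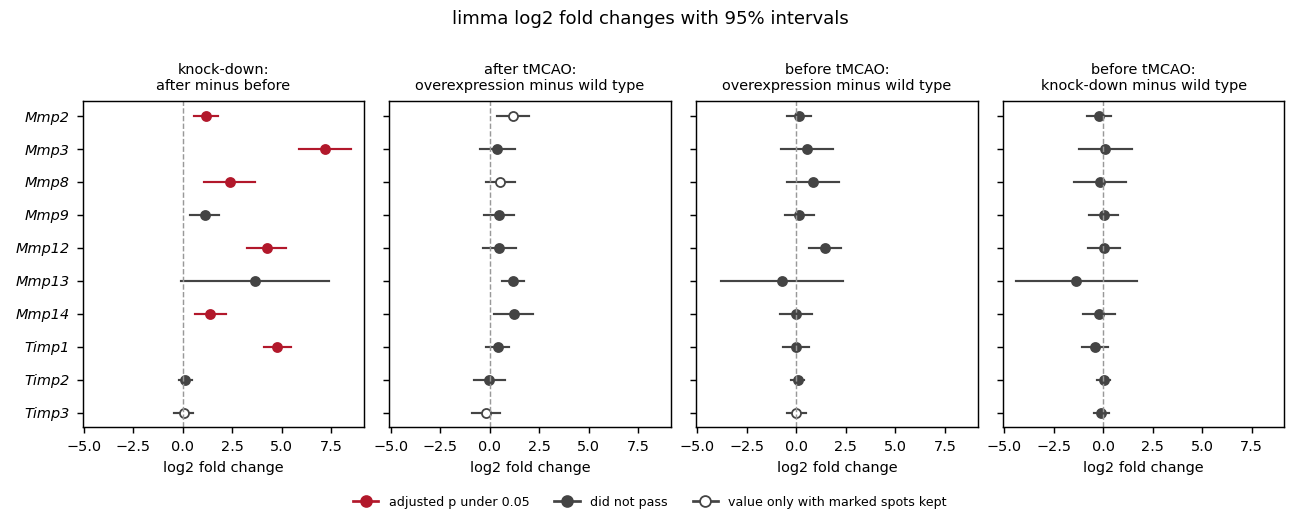
Log2 fold changes of the 10 members (points) with 95% intervals (lines) in 4 comparisons, red where the limma adjusted p was under 0.05, open where a value exists only with marked spots kept. In the knock-down, after minus before tMCAO, Timp1 stood at 4.78 and Mmp3 at a fitted 7.18 that has only a lower bound as a fold, and no member passed in the other 3 comparisons.

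Other genes of the matrix protease system were read from lists. Their counts in the knock-down comparison stand beside 11.1% of all genes called higher and 7.04% lower. Where a gene had 1 unmarked array after tMCAO, that array has no replicate, the fit takes its spread from the other groups and the lone array is assumed to vary like them. Of 16 other metalloproteinase genes 7 were tested in the knock-down comparison, of which 3 rose and 0 fell: Mmp19 by 2.36 ± 0.19 (adjusted p = 0.0077, 1 array after tMCAO), Mmp11 by 1.296 ± 0.16 and Mmp23 by 1.24 ± 0.31. Their median was -0.12, beside 0.05 over all genes. With marked spots kept, 16.6% of all genes passed in either direction. In that fit 8 other metalloproteinase genes were tested, 3 called higher and 1 lower, Mmp17 being the gene added, with a median of -0.06. Of 5 other inhibitor genes 2 were tested, and Tfpi2, a Kunitz-type inhibitor, rose by 4.86 ± 0.44 (adjusted p = 0.0042). Tfpi2 was not well above background on the knock-down arrays before tMCAO, which makes it at least 6.92-fold higher, while Timp4 was at 0.34 (adjusted p = 0.351).

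Of 10 genes of pro-enzyme activation and the plasmin system 6 were tested and 4 rose, 0 fell, with a median of 2.49. The urokinase gene Plau, whose product makes plasmin, rose by 1.93 ± 0.39 and its receptor gene Plaur by 3.05 ± 0.33 on 1 array after tMCAO. Serpinb2, which encodes an inhibitor of urokinase, rose by 4.39 ± 1.11 (at least 4.22-fold), and Serpinf2, which encodes the plasmin inhibitor alpha-2-antiplasmin, by 3.42 ± 0.33 (at least 3.28-fold). Tfpi2, Serpinb2 and Serpinf2 passed the filter on dim signal through the knock-down arrays after tMCAO alone. Of 9 ADAM and ADAMTS genes 6 were tested and 3 rose, 0 fell: Adam8 by 4.87 ± 0.34 and Adamts9 by 1.52 ± 0.24, each on 1 array after tMCAO, and Adam15 by 0.54 ± 0.12. Of 16 basement membrane and junction genes, which encode substrates of these proteases, 11 were tested and 7 rose, 0 fell, with a median of 0.997. The laminin chain gene Lama4 rose by 1.65 ± 0.19, the fibronectin gene Fn1 by 1.501 ± 0.19 and the tight junction gene Cldn5 by 0.87 ± 0.20, beside Nid2, Hspg2 (1 array after tMCAO), Lama5 and Lamc1 at 0.997 to 1.36. With marked spots kept, 4 of 8 activation and plasmin genes rose, with a median of 1.31. In that fit 2 of 4 other inhibitors rose (A2m added) and 4 of 9 ADAM and ADAMTS genes (Adamts1 added). Of the basement membrane and junction genes 10 of 16 rose, with Col4a1, Col4a2 and Nid1 added. On these lists 0 fell.

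**Figure D3:**
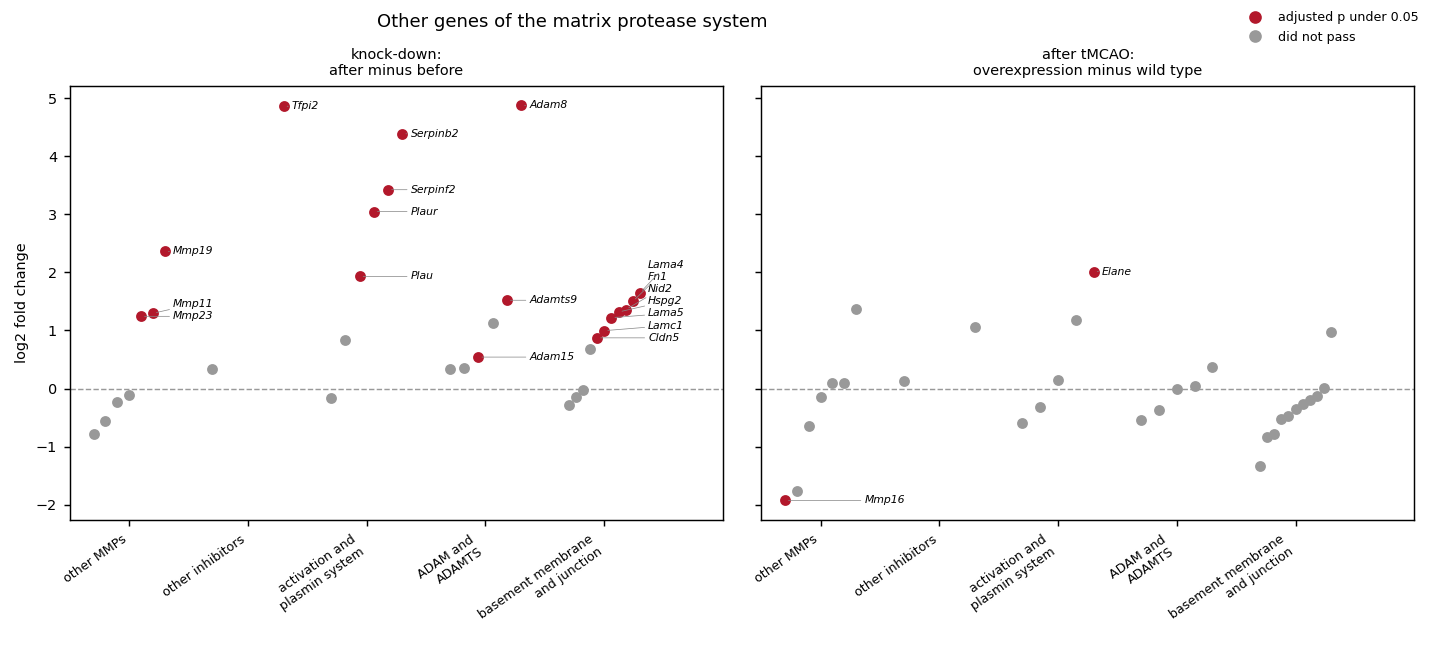
Log2 fold change of the listed companion genes (1 point per gene, grouped by list) for knock-down after minus before tMCAO (left) and overexpression minus wild type after tMCAO (right), red and named where the limma adjusted p was under 0.05. On the left 18 genes passed, all of them higher, up to 4.87 for Adam8, and on the right Elane was higher at 2.01 and Mmp16 lower at -1.93.

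Markers of other cell types moved with this comparison, in which 11.1% of all genes were called higher and 7.04% lower. Summed over a list on the linear scale, where the 75th percentile of an array is 1, markers of monocytes and border macrophages ran from 23.8 to 25.2 on the knock-down arrays after tMCAO, against 8.89 to 9.17 on those before it. Fibroblast markers ran from 18.3 to 22.0 after tMCAO, against 7.70 to 11.4 before it, and neutrophil markers from 9.21 to 11.2 after, against 6.17 to 7.01 before. Of the 6 neutrophil markers tested, 2 had a positive difference (median -0.28) and 1 rose, and of the wild type arrays taken before tMCAO, 1 summed to 4.18 and the other to 12.98, either side of the knock-down arrays after it. Endothelial and mural markers ran from 20.5 to 20.7 after tMCAO, against 14.3 to 14.9 before it, and neuronal markers from 45.9 to 52.1 after, against 54.6 to 54.7 before. Astrocyte markers ran from 30.1 to 32.5 after tMCAO, against 23.1 to 23.4 before it, and oligodendrocyte lineage markers were at 43.0 on both arrays after, against 30.4 on both before. Microglial markers ran from 51.4 to 56.1 after tMCAO, against 38.1 to 39.0 before it. Of the markers tested, 5 of 7 rose for monocytes and border macrophages, 3 of 4 for fibroblasts, 1 of 6 for neutrophils, 3 of 7 for endothelial and mural cells, 1 of 5 for astrocytes (Gfap), 1 of 2 for the oligodendrocyte lineage (Mog) and 3 of 6 for microglia. The neutrophil gene Elane was not well above background on either knock-down array after tMCAO, Ngp not on replicate 1 and Ltf not on replicate 2, while the monocyte receptor gene Ccr2 was at 0.08 and -2.02 after tMCAO against -3.97 and -4.43 before it. The part of these cells in the levels of Mmp3, Mmp8, Mmp12, Timp1 and the other members was not tested.

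**Figure D4:**
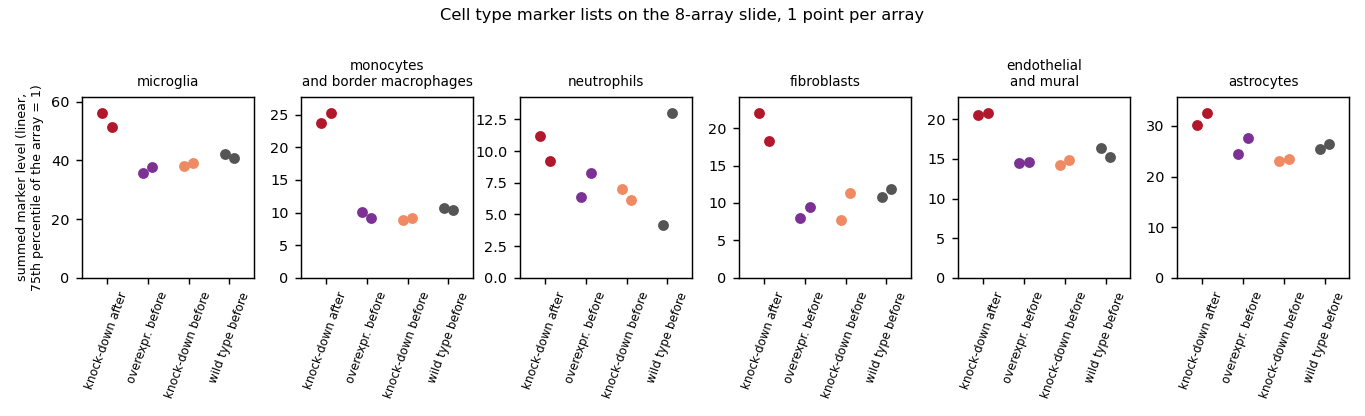
Summed marker level (linear, the array's 75th percentile being 1) of 6 cell type lists on the 8-array slide, 1 point per array. Knock-down after tMCAO stood above knock-down before it in each list shown, at 23.8 to 25.2 against 8.89 to 9.17 for monocytes and border macrophages.

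On the 4-array slide the comparison was ZEB1 overexpression with wild type after tMCAO, the genotype comparison that the design names at this stage. No member passed: 0 of the 7 members tested, 2 of them at an unadjusted p under 0.05 (limma), where 2.29% of 22488 genes were called, 1.57% higher and 0.725% lower. With all spots kept, both overexpression arrays stood above both wild type arrays for Mmp2, Mmp13, Mmp14 and Timp1, 4 of the 10 members, beside 21.6% of all genes. They stood below for 0 members, beside 33.8% of all genes, and overlapped for the other 6. The rows of the slide were the genotypes (row 2 for overexpression, row 1 for wild type) and cannot be told apart from them.

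**Figure D5:**
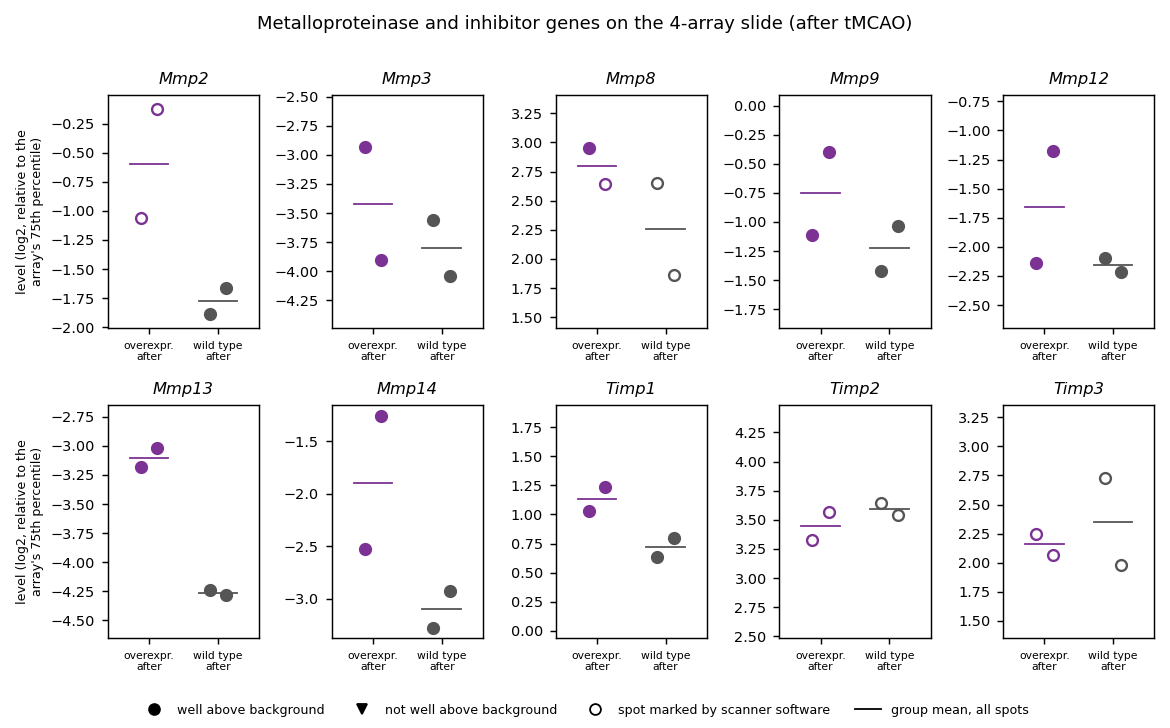
Level of each member (log2 signal above or below the array's 75th percentile, 1 point per array, line at the group mean) for ZEB1 overexpression and wild type after tMCAO on the 4-array slide, with open symbols marked by the scanner software. For Timp2 the brighter of its probes is drawn, whose spots were all marked, and Mmp13 stood at -3.18 and -3.02 with overexpression against -4.24 and -4.28 in wild type.

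Mmp13 was at -3.18 and -3.02 on the arrays labelled overexpression, against -4.24 and -4.28 on the wild type arrays. Those replicates were close together and the groups well apart, yet the difference of 1.16 ± 0.24 did not pass (limma adjusted p = 0.0592, n = 2 per group, 95% interval 0.60 to 1.72). It passed with marked spots kept (adjusted p = 0.0468, where 3.2% of all genes passed), with probes well above background on every array (adjusted p = 0.0469) and in the authors' deposited value table (1.18, adjusted p = 0.0488), and with normexp it was 0.23 (adjusted p = 0.793). Mmp14 was at -2.53 and -1.26 with overexpression, against -3.27 and -2.92 in wild type, and the overexpression replicates lay further apart than the nearest arrays of the 2 groups. Its difference was 1.204 ± 0.42 (adjusted p = 0.172), 1.84 without overexpression replicate 1 (adjusted p = 0.0182) and 0.57 without replicate 2 (adjusted p = 0.373).

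Mmp2 had 2 marked spots with overexpression, at -1.06 and -0.13, against -1.88 and -1.66 in wild type. It had no value with marked spots left out, and with them kept the difference was 1.18 ± 0.34 (adjusted p = 0.108). Mmp9 was printed in 10 replicate spots on each array of this slide, whose unmarked spots had an SD within an array of 0.10 to 0.27, and its mean was -1.11 and -0.40 with overexpression, against -1.42 and -1.03 in wild type. The Mmp9 groups overlapped and the difference was 0.47 ± 0.32 (adjusted p = 0.439).

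Mmp12 stood at -2.14 and -1.18 with overexpression, against -2.09 and -2.21 in wild type (0.49 ± 0.35, adjusted p = 0.462), and a second Mmp12 probe was not well above background on any array of this slide. Mmp3 stood at -2.94 and -3.91 with overexpression, against -3.56 and -4.04 in wild type (0.38 ± 0.37, adjusted p = 0.605). For both genes 1 overexpression array was high and the other lay among the wild type values. Mmp8 was the brightest of the 7 protease genes by its probe on this slide, at 2.96 and 2.64 with overexpression, against 2.65 and 1.86 in wild type, but 3 of those 4 spots were marked, and with them kept the difference was 0.54 ± 0.32 (adjusted p = 0.357). A probe's brightness does not rank the amounts of different transcripts.

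Among the inhibitors, Timp1 was at 1.03 and 1.24 with overexpression, against 0.64 and 0.80 in wild type. The groups did not overlap, but the difference was 0.41 ± 0.24 (adjusted p = 0.379, 95% interval -0.16 to 0.99). Timp2 was at 3.43 (a marked spot) and 3.44 with overexpression, against 3.35 and 3.58 in wild type, and its difference was -0.03 ± 0.32 on 1 overexpression array (adjusted p = 0.971). Timp3 was at 2.25 and 2.07 with overexpression, against 2.73 and 1.98 in wild type, all 4 spots marked, and differed by -0.20 ± 0.30 with them kept (adjusted p = 0.739). The 95% intervals were -0.81 to 0.75 for Timp2 and -0.91 to 0.52 for Timp3, so neither reached the difference of Mmp13.

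Of the companion genes in this comparison, the elastase gene Elane, a neutrophil protease, rose by 2.01 ± 0.37 (adjusted p = 0.0476) and Mmp16, a membrane-type protease gene, fell by 1.93 ± 0.24 on the log2 scale (adjusted p = 0.0187). Mmp16 was not well above background on either overexpression array, so it was at least 1.16-fold lower. Elane was 1 of 5 activation and plasmin genes tested and Mmp16 1 of 7 other metalloproteinases, beside 1.57% of all genes called higher and 0.725% lower. Plau was at 1.18 ± 0.37 (adjusted p = 0.144), A2m, which encodes the protease trap alpha-2-macroglobulin, at 1.06 ± 0.27 (adjusted p = 0.0946), and Mmp23 at -1.77 ± 0.44 on 1 wild type array (adjusted p = 0.105). None of 5 ADAM and ADAMTS genes and none of 11 basement membrane and junction genes passed, with medians of -0.01 and -0.35 beside -0.10 over all genes, and Lama4 was at -1.33 on 1 overexpression array. With marked spots kept, 3.2% of all genes passed in either direction. In that fit the tight junction gene Cldn5 was called lower at -1.52, 1 of 16 basement membrane and junction genes. Mmp16 and Mmp23 were also called lower there, and Elane and Ctsg of the activation and plasmin list higher. Among endothelial and mural markers, Acta2, Cldn5 and Des were called lower in the same fit. Summed endothelial and mural markers ran from 10.7 to 11.2 with overexpression, against 19.1 to 20.9 in wild type, and fibroblast markers from 10.6 to 11.4 with overexpression, against 13.5 to 15.6 in wild type. Neutrophil markers ran from 79.4 to 81.0 with overexpression, against 67.6 to 76.5 in wild type, and monocyte and border macrophage markers from 37.2 to 37.8 with overexpression, against 25.5 to 30.1 in wild type. Microglial markers ran from 106.6 to 123.2 with overexpression, against 125.0 to 131.9 in wild type. Neuronal markers ran from 32.1 to 45.9, against 50.2 to 52.1 in wild type. Astrocyte markers ran from 24.1 to 24.7, against 26.7 to 27.0, and oligodendrocyte lineage markers from 18.8 to 19.1, against 21.6 to 22.3. All 9 neutrophil markers on this slide were well above background on its 4 arrays, and Mmp8 was not among them. The part of these cells in the members' levels was not tested.

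Before tMCAO the 3 genotypes were compared on the 8-array slide, and no member and no gene passed in any pair. On the slide, overexpression lay in row 2, columns 1 and 2, and knock-down in row 2, columns 3 and 4. Wild type lay in row 1, columns 3 and 4, so position cannot be told apart from genotype. Marked spots made up 23.7% and 18.2% with overexpression, 3.28% and 1.26% in wild type and 1.87% and 1.03% with knock-down. For ZEB1 overexpression against wild type 0 of the 9 members tested and 0 of 25147 genes (0%) passed in limma, while 1 member and 2927 genes had an unadjusted p under 0.05. That member was Mmp12 at 1.45 ± 0.32 (adjusted p = 0.263), which was not well above background in either group, so the value is no fold. The other 8 ranged from -0.73 ± 1.201 for Mmp13 to 0.82 ± 0.54 for Mmp8, with Mmp9 at 0.13 ± 0.30 and Timp1 at -0.01 ± 0.27. With all spots both overexpression arrays stood above both wild type arrays for 3 of 10 members (Mmp2, Mmp3 and Mmp12), beside 22.8% of all genes, and below for 0, beside 24.5%. For Mmp3 and Mmp12 none of these 4 arrays was well above background, so their order ranks background signal, and Mmp2 was the only measured one of the 3.

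For ZEB1 knock-down against wild type 0 of 10 members and 0 of 30295 genes (0%) passed in limma, while 0 members and 2654 genes had an unadjusted p under 0.05. The values ran from -1.37 ± 1.201 for Mmp13, measured in wild type replicate 2 alone, to 0.10 ± 0.55 for Mmp3, not well above background in either group. Timp1 was at -0.41 ± 0.27 (adjusted p = 0.790), Mmp9 at 0.02 ± 0.30 and Mmp2 at -0.20 ± 0.25. Both knock-down arrays lay below both wild type arrays for 1 of 10 members, Timp3 by its brighter probe, as did 30% of all genes, and above for 0, beside 13.9%. By the other Timp3 probe these groups overlapped, at 2.630 and 2.618 with knock-down against 2.647 and 2.622 in wild type. For ZEB1 overexpression against knock-down 0 of 9 members and 0 of 25152 genes (0%) passed in limma, while 1 member, again Mmp12 and again not well above background, and 3717 genes had an unadjusted p under 0.05. The members ran from 0.05 ± 0.14 for Timp2 to 1.41 ± 0.32 for Mmp12, and 5 of 10 stood above without overlap (Mmp8, Mmp14, Timp1, Timp3 and, not well above background in either group, Mmp12), beside 31.8% of all genes, and 0 below, beside 19.4%. These 3 comparisons share arrays pairwise, so their values are not independent. The 95% intervals of Mmp9 reached from -0.60 to 0.87 for overexpression and from -0.72 to 0.76 for knock-down against wild type, and those of Timp1 from -0.67 to 0.65 and from -1.06 to 0.25, so a difference of 1 log2 unit in Timp1 lay outside the interval for overexpression and, on the lower side, inside that for knock-down.

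Levels on the different slides are set side by side without a test, since slide and group cannot be told apart, and 9 member probes are shared by both designs. On those probes the order of levels was as follows. Mmp3 was highest with knock-down after tMCAO (-0.06 and -1.65), next with overexpression (-2.94 and -3.91) and wild type (-3.56 and -4.04) after tMCAO, which overlapped, and lowest in all groups before tMCAO (-8.36 to -7.24), none of them well above background. Mmp12, by the probe shared with the 4-array slide, was at -2.14 and -1.18 with overexpression, at -2.09 and -2.21 for wild type and at -3.10 and -6.13 with knock-down after tMCAO, replicate 2 of the knock-down not being well above background. Mmp9 ran in another order than Mmp3, with overexpression (-1.11 and -0.40) and wild type (-1.42 and -1.03) after tMCAO overlapping at the top, knock-down after tMCAO at -3.25 and -3.99, and the groups before tMCAO at -5.05 to -4.43. Mmp14 had overexpression after tMCAO at -2.53 and -1.26, then wild type at -3.27 and -2.92 and knock-down at -3.22 and -4.05 after tMCAO, which overlapped, and -5.13 to -4.48 before it. Mmp2 stood at -1.06 and -0.13 with overexpression (both spots marked), at -1.88 and -1.66 for wild type and at -2.93 and -3.29 with knock-down after tMCAO, with no overlap among these, and at -4.62 to -3.95 before it. Mmp13 stood at -3.18 and -3.02 with overexpression, at -4.24 and -4.28 for wild type and at -4.33 and -3.24 with knock-down after tMCAO, the knock-down overlapping wild type and lying below overexpression, and at -8.65 to -4.93 before it, where only the array at -4.93 was well above background. Every group after tMCAO was thus above every group before it for Mmp2, Mmp3, Mmp9, Mmp13 and Mmp14, across slides for wild type and overexpression. Timp3 and the Timp2 probe that stood for the gene in the tests did not follow that order, but another shared Timp2 probe did. By the tested probe, Timp2 was at 3.35 to 3.58 on the 4 arrays of overexpression and wild type after tMCAO, against 2.20 to 2.44 on all 8 arrays of the other slide, knock-down after tMCAO included. By the other probe it was at 3.33 to 3.64 on those 4 arrays, all spots marked. That probe was at 2.27 on both knock-down arrays after tMCAO, 1 spot marked, and at 1.17 to 1.76 before it. Timp3 was at 1.98 to 2.73 on those 4 arrays, all spots marked, against 2.62 to 2.76 on the 8 others. By the tested probe, Timp2 thus differed between slides also where knock-down arrays after tMCAO did not stand apart from those before it. Slide and group cannot be told apart for the proteases either. Timp1 and Mmp8 have no shared probe, and their levels on the slides were not set against each other.

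The genes most like 3 members across the 8 arrays were found among 17951 genes with a symbol, by the mean absolute difference of levels centred on each gene's own mean. Nearest to Timp1 was Lgals3, which encodes galectin-3, a lectin of activated macrophages and microglia, at a mean difference of 0.20 log2 units where Timp1 itself spanned 5.004. Lgals3 stood at 3.23 and 3.15 on the knock-down arrays after tMCAO, and between -1.12 and -0.43 on the 6 arrays before it. The next were 1810013A23Rik (0.27) and Gm9999 (0.28). Before tMCAO, Gm9999 was below the lowest signal well above background on all 6 arrays. 1810013A23Rik was below it on the overexpression and knock-down arrays. Over those arrays the measure sets background signal against Timp1 and is no likeness of levels. Nearest to Mmp9 were Tcf19 (0.09), Plekhf2 (0.11) and Slc35g1 (0.12), where Mmp9 spanned 1.80. Nxpe5 (0.39), Kif18b (0.40) and the inhibitor gene Tfpi2 (0.41) came nearest to Mmp12, but Mmp12 was not well above background on the 6 arrays before tMCAO, so over those arrays the measure compares background signals and is no likeness of levels. These 8 arrays share 1 slide, and the likeness is carried by the contrast of the knock-down arrays after tMCAO with the rest.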

How the data were processed

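The deposited scanner output gives, per the file headers, an intensity for each spot that Agilent Feature Extraction had background-subtracted and detrended. The headers name version 11.5.1.1 and the submitters' processing notes 9.1. Yes or no marks in the same files, a unit of the kind other, state per the file headers whether a spot was well above background, non-uniform or outlying. The authors also deposited value tables in log2, whose columns (medians -3.75 to -3.04) were the log2 intensities shifted to a 75th percentile near 0, so nothing about their scale is unknown. For ZEB1 knock-down after tMCAO both columns followed the other replicate's scanner output (correlation with their own 0.975). These tables served as an alternative only.

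Processed intensity was converted to log2 and the 75th percentile of the array was subtracted. Marked spots were left out and spots of a probe averaged. Probes were named through their accessions in the RefSeq gene table (GRCm38.p6). Probes had to be well above background throughout 1 or more groups of their slide, which kept 11 of 12 member probes on the 4-array slide and 13 of 15 on the 8-array slide, and the brightest probe stood for a gene. The test was two-sided, from lmFit and eBayes of limma 3.58.1 (R 4.3.3), with 1 fit per slide over all its groups and Benjamini-Hochberg adjustment over all genes at a threshold of 0.05. Errors of log2 differences are SE. The fit was tested on simulated data. The text names all 10 members, every companion gene that passed and is reported here, at most 2 further genes of each companion list by size of change, and 3 most like genes for Mmp9, Mmp12 and Timp1. The members and lists were chosen with earlier results of these data known. Of the companion genes, 1 that belonged to the activation and plasmin list was left out of it and is not reported here. Alternatives were marked spots kept, normexp (offset 50, on median signals), quantile normalization, other filters, percentiles and probe rules, the value tables, a replicate block and leaving out each array. Same-numbered replicates deviated together weakly or not at all (correlations -0.11 to 0.29 on the 8-array slide, 0.11 on the other), and no block entered the reported fit. The number of arrays limits the precision.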

Additional observations from a re-analysis of the deposited data

How the results depend on the processing

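In knock-down after against before tMCAO, Timp1 and Mmp3 kept their calls under every alternative that gave a value, and so did Mmp12 except with no filter on dim probes. The share of calls that were higher there was 61.3%, against 78.7% with normexp, 44.7% with quantile normalization and 74.2% with no filter, settings that moved the median of all genes by 0.17, -0.14 and 0.34. That comparison had 7452 genes past the threshold with normexp, and 2121 genes and 2 members with no filter. Overexpression against wild type after tMCAO had 895 genes and 1 member with marked spots kept, 341 genes with quantile normalization, 777 genes and 1 member in the deposited value table, 1 member with probes well above background on every array, and 0 genes with no filter (limma, 4285 at an unadjusted p under 0.05). With quantile normalization the comparisons before tMCAO had 6 genes (overexpression against wild type), 1 gene (knock-down against wild type) and 6 genes (overexpression against knock-down).

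Without 1 array at a time, a lone array being assumed to vary like the other groups, the genes past the threshold ran from 40 to 1233 (members 0 to 1) in overexpression against wild type after tMCAO, from 827 to 3807 (members 3 to 5) in knock-down after against before tMCAO, from 0 to 2 in overexpression against wild type before tMCAO, from 0 to 3 in knock-down against wild type, and 0 in overexpression against knock-down. Replicate numbers were not taken as pairs in the reported fit, and pairing was not excluded. The numbers of knock-down after tMCAO are in doubt, since the deposited values followed the other replicate's scanner output. With the replicate number as a block the counts were 448 and 4700 genes in the first pair of comparisons, and Mmp13 passed in knock-down after against before tMCAO (4.64, adjusted p = 0.0279).

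Changes of direction were confined to differences that did not pass, in 20 of 384 results over the alternatives. In overexpression against wild type after tMCAO, Mmp3 was -0.31 with normexp and Timp2 0.13 with quantile normalization. In overexpression against wild type before tMCAO, quantile normalization gave Mmp3 -0.19, Mmp14 0.048 and Timp1 0.043, normexp gave Mmp9 -0.072 and Timp1 0.11, and the deposited value table gave Timp1 0.0050. In knock-down against wild type before tMCAO, quantile normalization gave Mmp2 0.023, Mmp8 0.095 and Mmp14 0.045, normexp gave Mmp3 -0.030, Mmp9 -0.22 and Mmp12 -0.023, the mean of probes gave Mmp9 -0.089, and no filter gave Mmp12 -0.039. In overexpression against knock-down before tMCAO, quantile normalization gave Mmp3 -0.46, Mmp9 -0.070 and Mmp13 -0.092, and the mean of probes gave Timp2 -0.00057.

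With an array left out, these differences also changed direction. In overexpression against wild type after tMCAO, Mmp3 ran from -0.11 to 0.86 and Timp2 from -0.14 to 0.087. In overexpression against wild type before tMCAO, Mmp8 ran from -0.057 to 1.69, Mmp9 from -0.18 to 0.45, Mmp13 from -2.40 to 0.94, Mmp14 from -0.35 to 0.31 and Timp1 from -0.37 to 0.35. In knock-down against wild type before tMCAO, Mmp2 ran from -0.52 to 0.13, Mmp3 from -0.23 to 0.43, Mmp8 from -1.05 to 0.70, Mmp9 from -0.29 to 0.33, Mmp12 from -0.40 to 0.47, Mmp13 from -3.04 to 0.30, Mmp14 from -0.54 to 0.11 and Timp2 from -0.078 to 0.14. Timp2 ran from -0.0044 to 0.21 in knock-down after against before tMCAO and from -0.064 to 0.15 in overexpression against knock-down before tMCAO, where Mmp13 ran from -0.050 to 1.32. The causes were not tested.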
